A study of Mus musculus with 2 samples.

Results

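The binding of DLX2 around the genes that make, degrade and sense retinoic acid was examined in the maxillary process, the part of the embryonic face from which the upper jaw grows. The 10 genes were *Aldh1a1*, *Aldh1a2*, *Aldh1a3*, *Cyp26b1*, *Rara*, *Rarb*, *Rarg*, *Rxra*, *Rxrb* and *Rxrg*. They were selected on their place in the pathway with earlier results of these peak lists known, and the strong region near *Aldh1a2* was already known then. Peaks were taken where they lay inside a gene or within 100 kb of its annotated extent in the mouse build mm10, and a region was called shared where a peak of each replicate covered it by at least 1 bp. By this rule 57 of 28061 replicate 1 peaks and 124 of 62093 replicate 2 peaks belonged to the 10 genes. They formed 21 of the 10921 shared regions of the data. Presence in both lists chose these regions, so their number and their folds are given as a description without a test.

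The data came from CUT&Tag, a method in which a transposase tethered to an antibody tags the DNA around the protein of interest. Both libraries were made with an Abcam antibody to DLX2, a homeodomain transcription factor, from wildtype embryos of C57BL/6 mice at E12.5, and they form 1 group with 2 replicates. Only these wildtype libraries were analysed here, without an input or antibody control, and the sources used here do not say whether a library came from 1 embryo or from several. The labels do not say that the replicates are separate animals, so the spread between them may be technical. Peak lists hold no expression values, so the labelled tissue could not be checked against marker genes. The number of fragments behind each peak was recovered from its fold and p, with a median of 6 in replicate 1 and 9 in replicate 2. The lowest local background was 0.387 fragments in replicate 1 and 1.101 in replicate 2.

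Retinoic acid is a small hormone made from vitamin A. Retinaldehyde dehydrogenases of the ALDH1A family carry out the last step of its synthesis, and enzymes of the CYP26 family break it down. It acts through retinoic acid receptors (RAR), which pair with retinoid X receptors (RXR) on DNA at short repeated half-sites called retinoic acid response elements. In the developing face too much or too little of it disturbs the growth of the upper jaw and palate.

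Shared regions lay around 9 of the 10 genes, while 60.2% of all 21779 protein-coding genes had at least 1 in a window of the same rule. *Aldh1a1* was the gene without one. The windows summed held 6.67 shared regions per Mb, against 5.42 over the summed windows of all coding genes, and the median of the single windows was 7.08 per Mb against 4.40. At least 3 shared regions were found for 4 of the 10 genes, namely *Rarb* with 5 and *Aldh1a2*, *Cyp26b1* and *Rarg* with 3 each, against 18.4% of coding genes. A shared region with a fold of at least 5 in both replicates was found for 6 of the 10 genes, against 28.6% of coding genes. These were *Aldh1a2*, *Cyp26b1*, *Rarb*, *Rarg*, *Rxrb* and *Rxrg*. Fold here is the number of summit fragments plus 1 over the expected local number plus 1, within a library. Windows of neighbouring genes overlap, and longer genes have longer windows, so the percentages describe the lists and are no test.

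**Figure D1:**
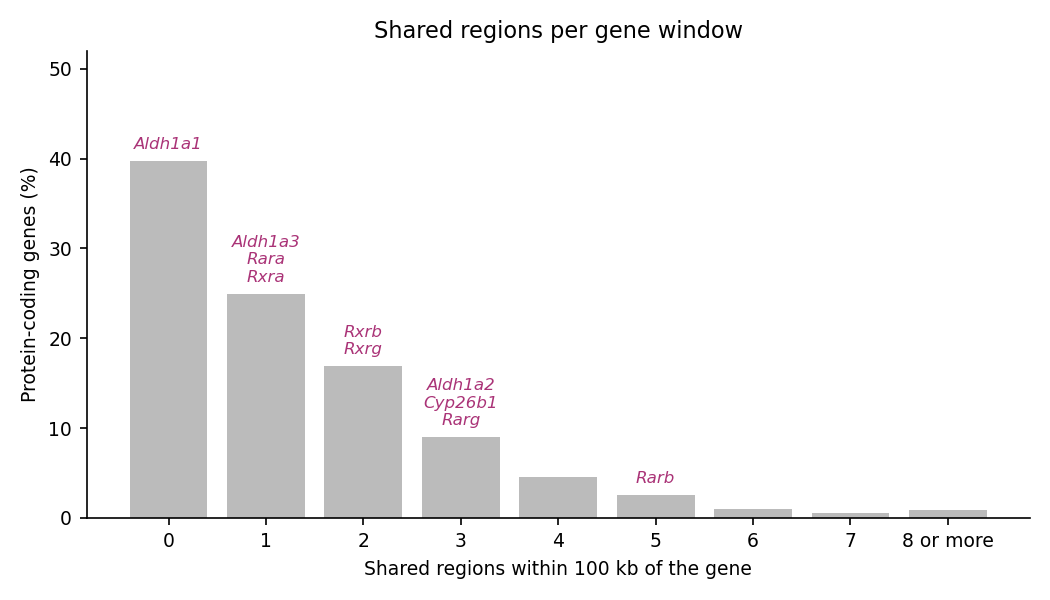
Shared regions per gene window. Bars give the percentage of 21779 protein-coding genes (y axis) by the number of shared regions within 100 kb of the gene (x axis), with the members written above the bar of their number. *Aldh1a1* stands at 0 with 39.8% of coding genes and *Rarb* at 5 with 2.50%.

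The shared regions lay away from the listed start sites of these genes. The promoter table of RefSeq (build GRCm38.p6) lists 17 windows of 300 bp for 9 of the genes, running from 250 bp before to 50 bp after a start site, and has no entry for *Aldh1a3*. None of the 17 windows met a shared region, nor a peak of replicate 1 alone or replicate 2 alone. Peaks of a single list did lie not far outside these short windows. In replicate 2 they lay 1.06 kb from a listed start of *Rxra*, 1.09 kb from one of *Rxrb* and 1.14 kb from one of *Rxrg*. In replicate 1 a peak lay 1.65 kb from a listed start of *Rxrg*. Over all 32851 listed windows, 0.161% met a shared region and 2.69% met a replicate 2 peak, so 0 of 17 is near the background. The shortest distance from a shared region to a listed start site of its gene, over the genes with a listed start, was 16.6 kb, at *Rara*. The sequence before the start site is shown for *Aldh1a2*, which had the strongest region, and for *Rarb*, which had the most regions, because these are the starts from which the distances were measured. Each runs from 5′ to 3′ on the strand of the gene and ends at the base before the listed start. Capitals mark a pair of receptor half-sites in the same direction, which the *Aldh1a2* sequence does not hold.
*Aldh1a2* (chr9:71215539-71215788, plus strand): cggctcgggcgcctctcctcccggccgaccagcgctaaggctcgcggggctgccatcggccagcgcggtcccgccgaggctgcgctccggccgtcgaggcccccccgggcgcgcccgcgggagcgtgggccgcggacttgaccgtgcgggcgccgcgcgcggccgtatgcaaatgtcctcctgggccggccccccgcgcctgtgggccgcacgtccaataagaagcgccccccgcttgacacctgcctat
*Rarb* (chr14:16575477-16575726, minus strand): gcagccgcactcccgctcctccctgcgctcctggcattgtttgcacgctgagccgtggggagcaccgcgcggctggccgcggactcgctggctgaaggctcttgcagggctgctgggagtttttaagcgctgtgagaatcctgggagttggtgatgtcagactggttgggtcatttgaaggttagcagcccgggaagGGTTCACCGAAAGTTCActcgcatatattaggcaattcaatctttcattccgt

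The promoter windows were searched on both strands for the homeodomain core TAATTA and its variant that reads TAATTG. They were also searched for the receptor half-site AGGTCA, for a variant that reads GGTTCA, for another that reads AGTTCA and for a last one that reads GGGTCA. The marked pair in *Rarb* begins 53 bp before the start site and holds GGTTCA first and, after 5 bp, the variant AGTTCA. At least 1 half-site was held by 8 of the 17 windows of the members and by 43.7% of all listed windows, so single half-sites were near the background. A pair with 5 bp between was held by 1 of the 17 windows of the members and by 0.0974% of all listed windows. Pairs with 1 or 2 bp between were held by 0 of the 17 windows, against 0.222% and 0.268% of all windows. A homeodomain core was held by 0 of the 17 windows, against 12.4% of all windows. A match in letters does not show that a factor binds, and an absent match says only that these letters are not in the window. The nearest shared region lay 166 kb from the listed *Rarb* start and 91.3 kb from the *Aldh1a2* start. The listed *Rarb* start lies within the annotated extent of the gene, chr14:16430839-17082331, and not at its 5′ end. A region can thus lie upstream of this start and still inside *Rarb*.

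**Figure D2:**
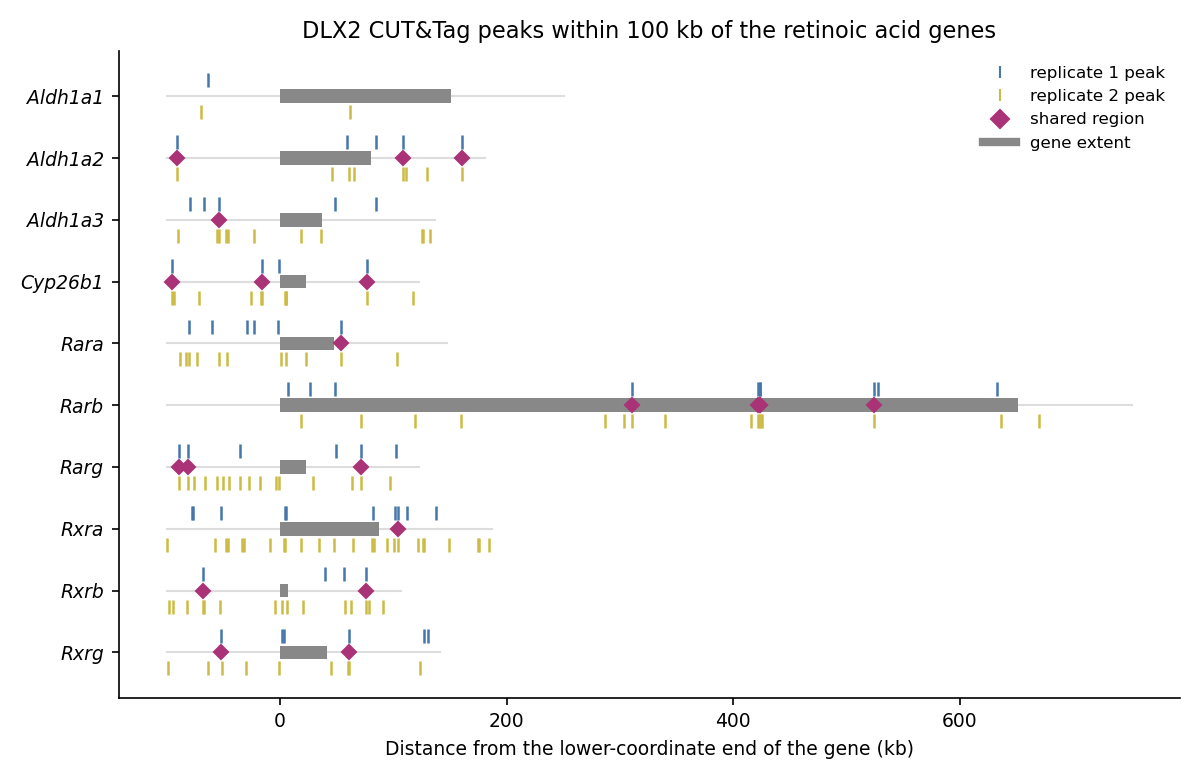
Peaks within 100 kb of each gene. The x axis is the distance in kb from the lower-coordinate end of the gene. Grey bars are gene extents, ticks above are replicate 1 peaks, ticks below are replicate 2 peaks and diamonds are shared regions. Diamonds fall on the grey bar of *Rarb* alone, and *Aldh1a1* has no diamond.

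Among the genes of synthesis, *Aldh1a2*, which encodes the main retinoic acid making enzyme of the early embryo, carried the highest fold of all 21 regions. This region lay at chr9:71323812-71324141, 27.6 kb downstream of the gene and 108 kb from its start site. Its fold was 12.6 in replicate 1 and 12.6 in replicate 2, a mean of 12.6 ± 0.0233 (SD, n = 2). It rested on 21 fragments in replicate 1 and 36 in replicate 2, with a −log10 q of 18.1 and 27.7. The local background was 0.742 fragments in replicate 1 and 1.94 in replicate 2, and the fold adds 1 to both numbers. Equal folds therefore do not mean equal ratios of fragments to background. The SD is that of the folds and leaves out the counting error of the fragments. The summits of both replicates fell on the same base, as they did in 0.760% of all shared regions. No other gene, coding or non-coding, lay nearer to it than *Aldh1a2*. Ranked by the fold of the lower replicate it was number 9 of the 10921 shared regions, and 0.115% of coding genes had a shared region with a fold at least as high in their window. Its local background was 1.92 times the lowest background of replicate 1 and 1.76 times that of replicate 2.

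The window of *Aldh1a2* held a further pair of shared regions. The region at chr9:71376123-71376303, 79.9 kb downstream of the gene, reached a fold of 7.62 in replicate 1 but 4.76 in replicate 2, so the replicates differed there more than at the strongest region. It rested on 10 and 9 fragments, and the non-coding gene *Gm32769* lay 2.75 kb away. The region at chr9:71124328-71124446 lay 91.3 kb upstream of *Aldh1a2* and inside *Aqp9*, a gene of a water and glycerol channel, with folds of 4.33 and 4.22 on 5 and 8 fragments. Inside *Aldh1a2* itself there were 1 peak of replicate 1 and 3 peaks of replicate 2, none of them shared. The strongest of these, in replicate 2, lay at chr9:71261241-71261599 with a fold of 6.44 on 13 fragments, and the nearest replicate 1 peak was 13.5 kb away.

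**Figure D3:**
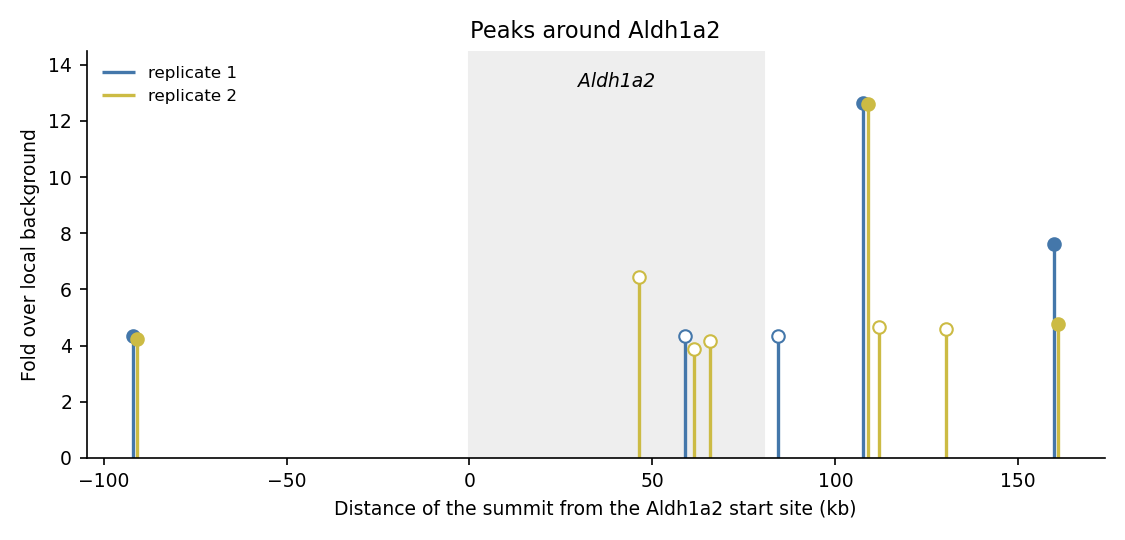
Peaks around *Aldh1a2*. Stems give the fold of each peak (y axis) at the distance of its summit from the listed start site in kb (x axis), with filled heads for peaks met by the other replicate and the gene extent in grey; the stems of the replicates are shifted sideways to keep them apart. The pair 108 kb from the start reaches 12.6 in both replicates, and the heads within the gene are all open.

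The other enzymes of synthesis differed from *Aldh1a2*. *Aldh1a3*, the enzyme known from the nasal and eye regions, had 5 peaks in replicate 1 and 11 in replicate 2 but 1 shared region. This region, at chr7:66336580-66336697, lay 54.2 kb from the lower-coordinate end of *Aldh1a3* and inside *Lrrk1*, a kinase gene. Its fold was 3.90 in replicate 1, on 5 fragments, and 8.41 in replicate 2, on 22 fragments, the widest gap between replicates of the 21 regions, and the summits lay 345 bp apart. *Aldh1a1* had 1 peak in replicate 1 and 2 in replicate 2, none of them shared. The replicate 1 peak, 63.6 kb upstream, had a fold of 5.77 on 7 fragments, and the nearest replicate 2 peak lay 5.64 kb from it. The nearest shared region to *Aldh1a1* was 444 kb away.

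*Cyp26b1*, which encodes an enzyme that degrades retinoic acid, had 3 shared regions, all outside the gene. The region at chr6:84555232-84555420 lay 16.0 kb downstream, where replicate 1 gave a fold of 8.36 and replicate 2 gave 4.07, on 15 and 11 fragments. It was thus high in replicate 1 and close to the median of the list in replicate 2, which was 4.12. The region at chr6:84475948-84476132, 95.3 kb downstream, had folds of 5.64 and 5.13, and the region at chr6:84648089-84648159, 54.2 kb upstream and inside *Exoc6b*, a gene of the vesicle tethering exocyst complex, had folds of 5.05 and 5.71. These folds lay closer together than those of the nearer region. Replicate 2 also had 3 peaks inside *Cyp26b1*, the strongest with a fold of 4.95 on 17 fragments, while replicate 1 had none.

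Among the receptors of retinoic acid itself, *Rarb* had the most shared regions. *Rarb* encodes a receptor whose own promoter is a known target of retinoic acid. All 5 of its regions lay inside the annotated extent of 651 kb, the longest of the 10 genes, and they were the only shared regions inside any of the genes. At least as many shared regions were found for 4.86% of coding genes, a count that does not allow for window length. Per Mb the *Rarb* window held 5.87 shared regions, against 5.42 over the summed windows of all coding genes. Requiring 50% of both peaks left 2 regions at *Rarb*. The annotation used gives no exons, so exonic and intronic positions were not told apart. The region at chr14:16741448-16741588 gave 5.77 in replicate 1 and 4.28 in replicate 2, on 7 and 8 fragments. The region at chr14:16954611-16954745 had folds of 5.63 and 5.07 on 7 and 10 fragments, and its background was 1.09 times the lowest in replicate 1 and 1.06 times in replicate 2.

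The other *Rarb* regions formed a cluster. They lay at chr14:16852659-16852979, chr14:16854106-16854218 and chr14:16854555-16854578, 277 to 279 kb upstream of the listed start site but inside the annotated extent. Their folds in replicate 1 were 4.95, 3.84 and 3.88, and all met the same replicate 2 peak of 1920 bp with a fold of 5.51 on 25 fragments, so they are not independent of each other. The local background there was 4.07 to 4.20 times the lowest background of replicate 1 and 3.38 times that of replicate 2, the highest of the 21 regions. Whether the raised background has a part in these peaks was not tested.

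*Rara* and *Rarg* encode the other receptors of retinoic acid. *Rara* had 1 shared region, at chr11:98981446-98981730, 6.504 kb downstream of the gene and inside *Gjd3*, a gap junction gene. Its fold was 4.59 in replicate 1 on 7 fragments and 6.03 in replicate 2 on 17 fragments. *Rarg* had 3 shared regions in a window that 13 coding genes touched. The region at chr15:102153612-102153791, 81.1 kb downstream and inside *Soat2*, a gene of cholesterol ester formation, had folds of 6.08 and 5.59. The region at chr15:102145848-102146026, inside *Igfbp6*, a gene of an insulin-like growth factor binding protein, had folds of 4.25 and 6.30. The region at chr15:102306296-102306451, 48.8 kb upstream and inside *Espl1*, the gene of separase, had the lowest fold in replicate 2 of the 21 regions, at 3.35, with 4.59 in replicate 1. Each of the *Rarg* regions thus lay in another coding gene.

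The partner receptors of the RXR family had 5 shared regions, none inside a gene of the family. *Rxrb* had a pair with high folds. The region at chr17:33963457-33963904, 67.9 kb upstream and inside *Vps52*, a gene of a vesicle tethering complex, reached 8.18 in replicate 1 and 7.53 in replicate 2, on 16 and 29 fragments. The region at chr17:34107451-34107852, 69.0 kb downstream and 4.17 kb from *Brd2*, a gene of a chromatin reader, had folds of 8.79 and 6.50 on 13 and 16 fragments. Both lay in a gene-dense window that 15 coding genes touched, and 4.31% of coding genes had a shared region with a fold at least as high as the first. The background under the first was 2.78 times the lowest in replicate 1 and 2.71 times in replicate 2.

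*Rxrg*, known from muscle and brain, had a region on each side. At chr1:167546439-167546629, 51.7 kb upstream, the folds were 6.29 and 5.31 on 8 and 11 fragments. At chr1:167658840-167659030, 19.2 kb downstream, the folds were 5.15 and 5.68 on 8 and 17 fragments. *Rxrg* was the nearest coding gene to both.

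*Rxra*, the most widely used partner in the embryo, had many peaks and few in common. It had 10 peaks in replicate 1 and 25 in replicate 2, and 1.68% of coding genes had at least as many in replicate 2. Of the 10 peaks of replicate 1, 1 recurred. The single shared region, at chr2:27780287-27780391, lay 17.0 kb downstream of the gene, with folds of 4.77 and 4.33 on 8 and 13 fragments. Inside *Rxra* there were 3 peaks of replicate 1 and 8 of replicate 2, with folds between 3.18 and 4.59. No shared region was found inside *Rxra*, but the 3 replicate 1 peaks there lay 0.14, 0.91 and 0.044 kb from the nearest replicate 2 peak. The replicate 1 peaks outside the gene that did not recur lay 0.661 to 19.9 kb from one.

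**Figure D4:**
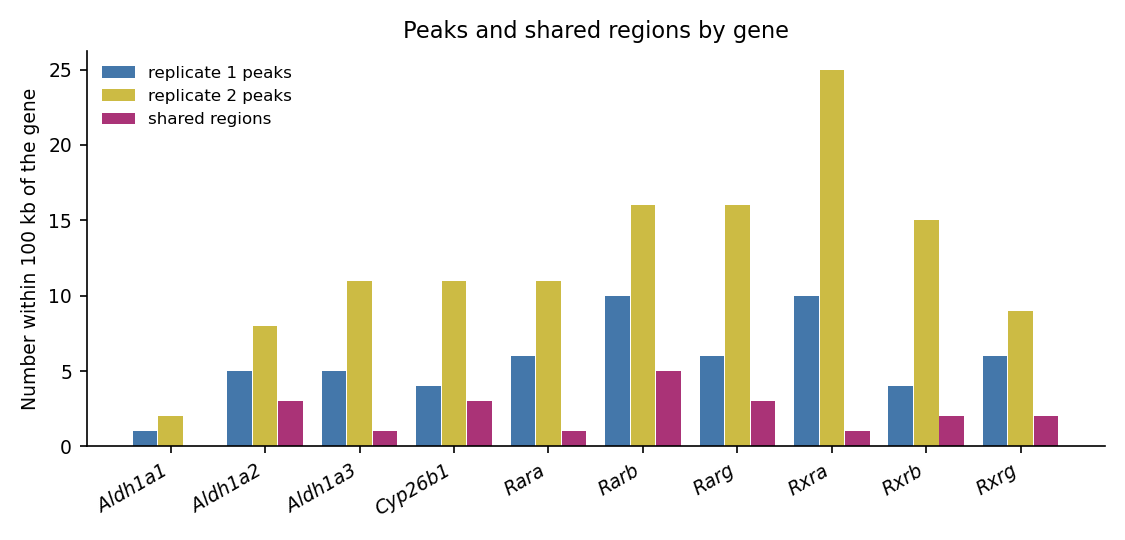
Peaks and shared regions by gene. Bars give the number within 100 kb of each gene (y axis) for replicate 1, replicate 2 and the shared regions. *Rxra* has 25 replicate 2 peaks and 1 shared region, and replicate 2 has more peaks than replicate 1 at each gene.

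Over the 21 regions the fold ranged from 3.84 to 12.6 in replicate 1, with a median of 5.15, and from 3.35 to 12.6 in replicate 2, with a median of 5.51. The medians over all shared regions were 5.05 in replicate 1 and 5.12 in replicate 2. The fold of the lower replicate had a median of 4.76, against 4.51 over all shared regions, and 12 of the 21 regions were at or above the latter. The strongest *Aldh1a2* region stood at the top of this range, and the next, at *Rxrb*, had 4.19% of all shared regions at or above it. Summits of the replicates lay a median of 59 bp apart, against 63 bp over all shared regions. Of the 21 pairs 17 lay within 150 bp, against 82.1% of all shared regions, so this was near the background.

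**Figure D5:**
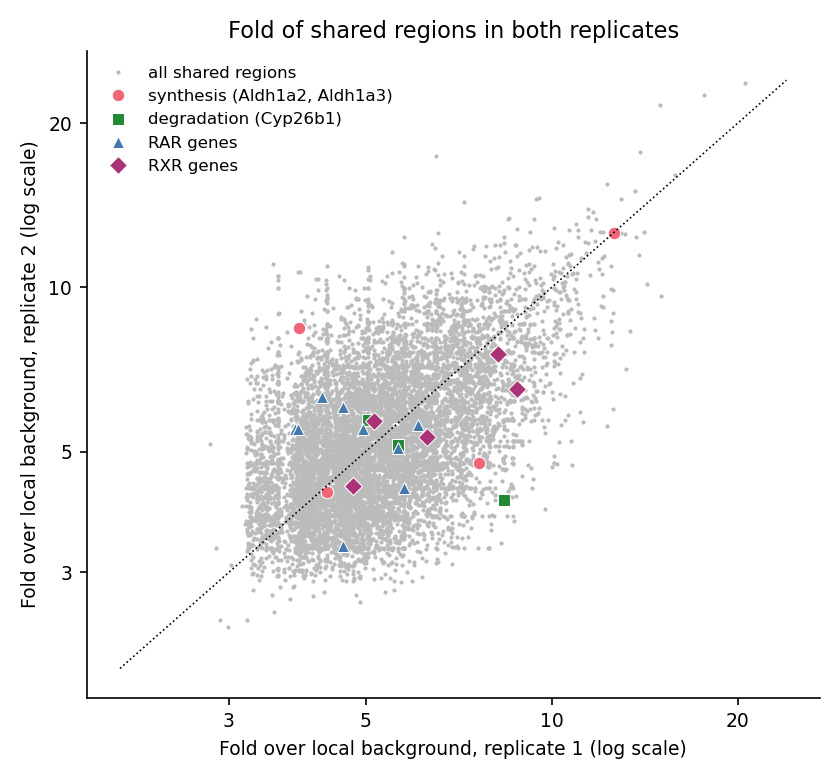
Fold of shared regions in both replicates. Points give the fold over local background in replicate 1 (x axis) and replicate 2 (y axis), both on log scales, grey for all 10921 shared regions and coloured for the 21 regions of the members; the dotted line marks equal folds. The *Aldh1a2* region at 12.6 in both stands on the line and above the other 20.

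Recurrence between the lists was near that of all peaks. Around the 10 genes 21 of 57 peaks of replicate 1 overlapped one of replicate 2, or 36.8% (95% Wilson interval 25.5 to 49.8%), against 38.9% of all replicate 1 peaks. In the other direction it was 19 of 124 peaks, or 15.3% (interval 10.03 to 22.7%), against 17.2%. Both intervals held the value of the whole list, which includes these peaks, and they are no test. They cover counting error only and take peaks as independent, although several replicate 1 peaks at *Rarb* met the same replicate 2 peak. Recurrence followed the fold. With a fold of 7 or more, 5 of 5 peaks of replicate 1 and 3 of 3 of replicate 2 recurred, against 90.2% and 82.6% of all such peaks. With a fold below 4, 3 of 18 and 1 of 59 recurred, against 20.3% and 6.99% of all such peaks.

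Position in the window does not say which gene a region acts on. The member was the nearest coding gene, or held the region, for 12 of the 21 regions, which belonged to *Aldh1a2*, *Cyp26b1*, *Rarb*, *Rxra* and *Rxrg*. The remaining regions lay inside or nearer to another coding gene, among them all those of *Aldh1a3*, *Rara*, *Rarg* and *Rxrb*. At the edge of the rule, the last regions within it lay 95.3 kb from *Cyp26b1* and 91.3 kb from *Aldh1a2*. The first ones beyond it lay 110.0 kb from *Rarg*, with folds of 7.87 and 4.77, and 120.1 kb from *Aldh1a2*, at chr9:71416315-71416703, where replicate 1 gave 8.98 and replicate 2 gave 7.08.

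Of 36 other genes of the pathway, 23 had a shared region within 100 kb, or 63.9%, against the 60.2% of all coding genes. By role these were 6 of 9 genes of transport and storage, 6 of 10 of retinol and retinal conversion, 2 of 2 of degradation, 6 of 8 cofactors and 3 of 7 genes that respond to retinoic acid. *Cyp26a1*, the other main degrading enzyme, shared its 3 regions with its neighbour *Cyp26c1*. The strongest of them, at chr19:37714032-37714225, lay 12.496 kb downstream of *Cyp26a1*, with folds of 7.13 and 5.41. *Rdh10*, which makes the retinal that ALDH1A enzymes use, had 1 region, 19.1 kb away, with folds of 6.72 and 5.33. *Stra6*, the receptor for the retinol carrier, had 1 region, 84.2 kb downstream, with folds of 8.14 and 5.80, and *Pml* was its nearest coding gene. *Hoxb1*, a target of retinoic acid in the hindbrain, had 0 shared regions, as had *Crabp1*, *Ep300* and *Nr2f1*.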

How the data were processed

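CUT&Tag peak lists of both wildtype replicates were used, numbered in the order of their sample records. Per the submitters' processing notes, reads were trimmed with Trim Galore 0.4.5, aligned to mm10 with Bowtie 1.1.2, and peaks were called with MACS2 2.2.7. The study's methods name other versions of Trim Galore and bowtie2, and the labels describe sonicated chromatin whereas the methods describe transposase tagging. Caller settings are not given in the sources used here. Each replicate has its own list, whose largest q is just under 0.1. Both lists hold more peaks than the study's text describes, and the filter behind the difference is not given in the sources used here, so a shared region here is not the study's common peak.

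The deposited fold is a ratio of summit fragments plus 1 to local background plus 1. The deposited −log10 p and −log10 q are the caller's own. The deposited score is the whole part of 10 times the −log10 q and was not used. The deposited summit position was used to match summits. Whole fragment numbers were recovered from fold and −log10 p, taken as a Poisson upper tail, for 100% of peaks within 0.001; read totals are unknown.

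Gene extents came from RefSeq, GRCm38.p6. On chromosomes 1 to 19 and X, genes listed before position 3000000 were left out, 340 in all. Distances run to the gene extent unless a start site is named, and strand came from the promoter table. No genome sequence was used, so sequences of peaks were not analysed here. All shared regions of the members are named, and single peaks only where they were the strongest of their gene and list or count the peaks inside a gene. The members and gene lists were chosen with earlier results of these data known. There is 1 group, so no test between groups was made. Alternatives were windows of 50 and 250 kb, a −log10 q or fold of at least 5, 50% reciprocal overlap, summits within 150 bp, linking to the nearest coding gene, the other replicate as reference and each list alone. Overlap, windows and fragment recovery were tested on simulated data. Versions were scipy 1.17.1, pandas 2.3.3 and numpy 2.4.6 under Python 3.11.15, with matplotlib 3.10.9 for the plots.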

Additional observations from a re-analysis of the deposited data

How the results depend on the processing

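Counts followed the window and the filters by construction. A window of 50 kb left 11 shared regions and a mean of 55 peaks per list, and a window of 250 kb gave 47 regions and 181 peaks, against 21 and 90.5. At a fold of at least 5 there were 9 regions and 19.5 peaks per list, and 52.9% of replicate 1 peaks were met. Requiring a −log10 q of 5 left 3 regions at 2 genes, *Aldh1a2* and *Rxrb*, 10 peaks per list, and 60% of replicate 1 peaks were met. Requiring 50% of both peaks left 12 regions. Linking to the nearest coding gene left 12 regions at 5 genes. The share met was 15.3% with replicate 2 as reference. Using 1 list alone gave 57 to 124 peaks, and 10 of 10 genes with a peak in either case. Of all coding genes, 83.0% had at least 1 replicate 1 peak in such a window. At least 2 replicate 2 peaks were found for 85.5% of coding genes, so the share with at least 1 was that or higher. Of 28 recomputed main values 12 stayed within 1.5 times the main count or within the interval of the main share. Of 70 counts per gene 37 moved further. Taking the peak nearest to the middle of a region could not change any fold, since peaks do not overlap within a list and each region has 1 peak per list, so it was no check of the folds. The strongest *Aldh1a2* region was present under each window, filter, overlap and link tried. Its place and values already met each of these limits, so this was no check of the region. No paired analysis was possible because there is 1 group. With 2 lists and no control library, sites of DLX2 cannot be told apart from background common to both libraries, and no listed peak rests on fewer than 4 fragments in replicate 1 or 6 in replicate 2, so a missing peak does not show that DLX2 was absent.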

Other observations

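Of the 36 replicate 1 peaks of these genes that met no replicate 2 peak, 7 (19.4%) had one within 1 kb, against 12.1% of the 17156 unmet replicate 1 peaks in the whole list. Among the 7 were the *Rxra* peaks at 0.14, 0.91, 0.044 and 0.661 kb, so much of this share came from 1 gene. *Rxra* had 25 replicate 2 peaks, the most of the members. The difference was not tested. The coding genes whose best shared region came closest in fold to the strongest *Aldh1a2* region, by the lower replicate, were *Cadps2* at 12.6, *Mat2b* and *Hmmr* at 12.6, *Vmn2r87* at 12.4 and *D16Ertd472e* at 12.3. *Mat2b* and *Hmmr*, both on chromosome 11, have 1 shared region each, at the same fold, so this may be the same region counted for both genes. This likeness is in 1 value over 2 replicates and was not tested.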
